A study of Mus musculus with 12 samples.

Results

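The genes described here are 52 named genes of the lysosome and of autophagy, 52 of the 34745 genes in the deposited table. They were taken by symbol, by a rule that uses no measured value, from a list drawn up with earlier results of these data known, and all 52 were found, had counts in every library and passed the filter on low counts in every comparison. They were grouped by role into 3 transcriptional regulators (Tfeb, Tfe3 and Mitf), 22 lysosomal genes (14 enzymes and activators, 8 membrane and proton pump genes) and 27 genes of the autophagy machinery (5 cargo receptors, 5 ATG8 proteins, 5 initiation genes, 6 of the PI3K complex and its effectors and 6 of the conjugation system). RNA was sequenced in 12 libraries of MLE-12 cells, a mouse lung epithelial line used as a model of alveolar type II (AT II) cells, with 3 libraries in each of 4 groups, all sampled at 24 h. Cells of the LPS group received 100 ng/mL lipopolysaccharide (LPS), a bacterial cell wall component, in 21% oxygen, and the LPS + M2-Exo group received the same with 10 µg/mL of exosomes from M2 macrophages (M2-Exo). Cells of the hyperoxia (Hyp) group were kept in 85% oxygen without LPS, and the Hyp + M2-Exo group received the same with 10 µg/mL M2-Exo. By the authors' methods M2-Exo followed the hyperoxia or LPS treatment. The time from their addition to sampling is not given for these libraries in the sources used here. Untreated cells were not analysed here, so each injury could be set only against the other injury. The LPS and Hyp groups differ in LPS, in oxygen and in any difference between runs, and these cannot be told apart. All libraries came from 1 cell line, and the labels do not say that the 3 libraries of a group were separate cultures, so p-values measure the spread between libraries, which may be technical.

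Lysosomes are acidic compartments in which hydrolases break down protein, glycans and lipids. A proton pump, the V-ATPase, keeps them acid, and heavily glycosylated membrane proteins line them. Autophagy delivers the cell's own material to them: the ULK1 kinase complex starts the process, a phosphatidylinositol 3-kinase (PI3K) complex marks the membrane, a ubiquitin-like conjugation system attaches ATG8 proteins (LC3 and GABARAP proteins) to the growing membrane, and cargo receptors link cargo to ATG8. TFEB, TFE3 and MITF are related transcription factors that switch on many lysosomal and autophagy genes. In AT II cells, the lamellar bodies that store surfactant are themselves lysosome-related organelles.

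Total counts ranged from 16021833 to 24074616 per library, with lower totals in the LPS + M2-Exo group. Levels are given as the deposited FPKM (fragments per kilobase, scaled to the library total). The gene lengths behind them are the deposited ones, which for some genes far exceed a transcript (20656 bases for Tfe3, against 3390 in its longest protein-coding GENCODE transcript) and for others do not (2255 against 2229 for Lamp1). Orders of genes and sums over genes depend on these lengths, and comparisons of 1 gene between libraries do not. Changes are log2 fold changes fitted to the counts with edgeR after TMM normalization. The FPKM use totals that are not TMM-scaled, and between the LPS and Hyp groups this matters: with library size alone the median log2 fold change of all genes was -0.099 in place of -0.0091. The cell type was only partly borne out by its markers. Nkx2-1 (785 to 3223 counts), Abca3 (2825 to 3757 counts), Sftpc (240 to 433 counts), Krt8 and Krt19 were present in every library, whereas Sftpa1, Sftpd, Krt18, Cldn4 and Epcam had at most 1, 1, 4, 4 and 21 counts. These markers also differed by injury, with Nkx2-1 at 3111, 3193 and 3223 counts in LPS and 1010, 861 and 967 in Hyp. In LPS against Hyp all 9 AT II markers tested had an adjusted p under 0.05 in edgeR, 6 higher and 3 lower. The same held for all 5 epithelial markers tested, 4 higher and 1 lower, beside 75.8% of all genes. Genes that mark macrophages were also counted in every library, among them Csf1r (300 to 2063 counts), Lyz2 (387 to 2024 counts) and Adgre1 (188 to 1515 counts), whereas Cd163 and Siglecf had at most 2 and 1 counts. The summed FPKM of the macrophage list was 59.96 to 64.5 in Hyp, 47.1 to 69.7 in Hyp + M2-Exo, 175 to 197 in LPS and 139.5 to 157 in LPS + M2-Exo. It therefore moved with the groups, and its part in the results below was not tested. In bulk RNA, fewer cells of a type and less RNA per cell cannot be told apart. Of the members, 11 overlap another gene with at least 1% of their counts (Ctsa, Ctsb, Ctsz, Glb1, Ppt1, Cln3, Sqstm1, Map1lc3b, Rb1cc1, Atg9a and Atg4b), and whether the counting used strand is not given in the sources used here. Separately, 12 members share over 10% of their 50-base stretches with transcripts of another gene (Ctsa, Ctsb, Ctsd, Ctsl, Hexa, Cln3, Sqstm1, Gabarapl1, Gabarapl2, Rb1cc1, Atg9a and Becn1), with the largest share, 45.7%, in Becn1. The values of these genes are uncertain to that extent.

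On the deposited FPKM scale the members covered a wide range of levels. Lamp1, a glycoprotein of the lysosomal membrane, was the most abundant at a mean of 725 FPKM over the 12 libraries and alone made up 27.8% to 34.7% of the summed lysosomal FPKM. It was followed by Psap, the precursor of the saposins that present lipids to hydrolases (202 FPKM), the cathepsin Ctsz (196 FPKM) and Atp6v0d1, a subunit of the membrane sector of the V-ATPase (167 FPKM). Of the autophagy genes, Sqstm1, which encodes the cargo receptor p62, had the highest level (104 FPKM), then Gabarap (74.1 FPKM) and Gabarapl1 (42.2 FPKM). The regulators lay near the bottom of this scale, with Tfe3 at 5.26 (1806 to 2570 counts), Tfeb at 1.83 and Mitf at 1.18 FPKM, and the lowest member was Cln3 at 0.301 FPKM with 19 to 126 counts per library. Within groups the libraries lay close together for most members. Wider spreads, with an SD over 10% of the mean, were found for Atp6ap1 in both hyperoxia groups, Becn1 in 3 of the 4 groups and Tfeb in both groups with M2-Exo, among others.

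**Figure D1:**
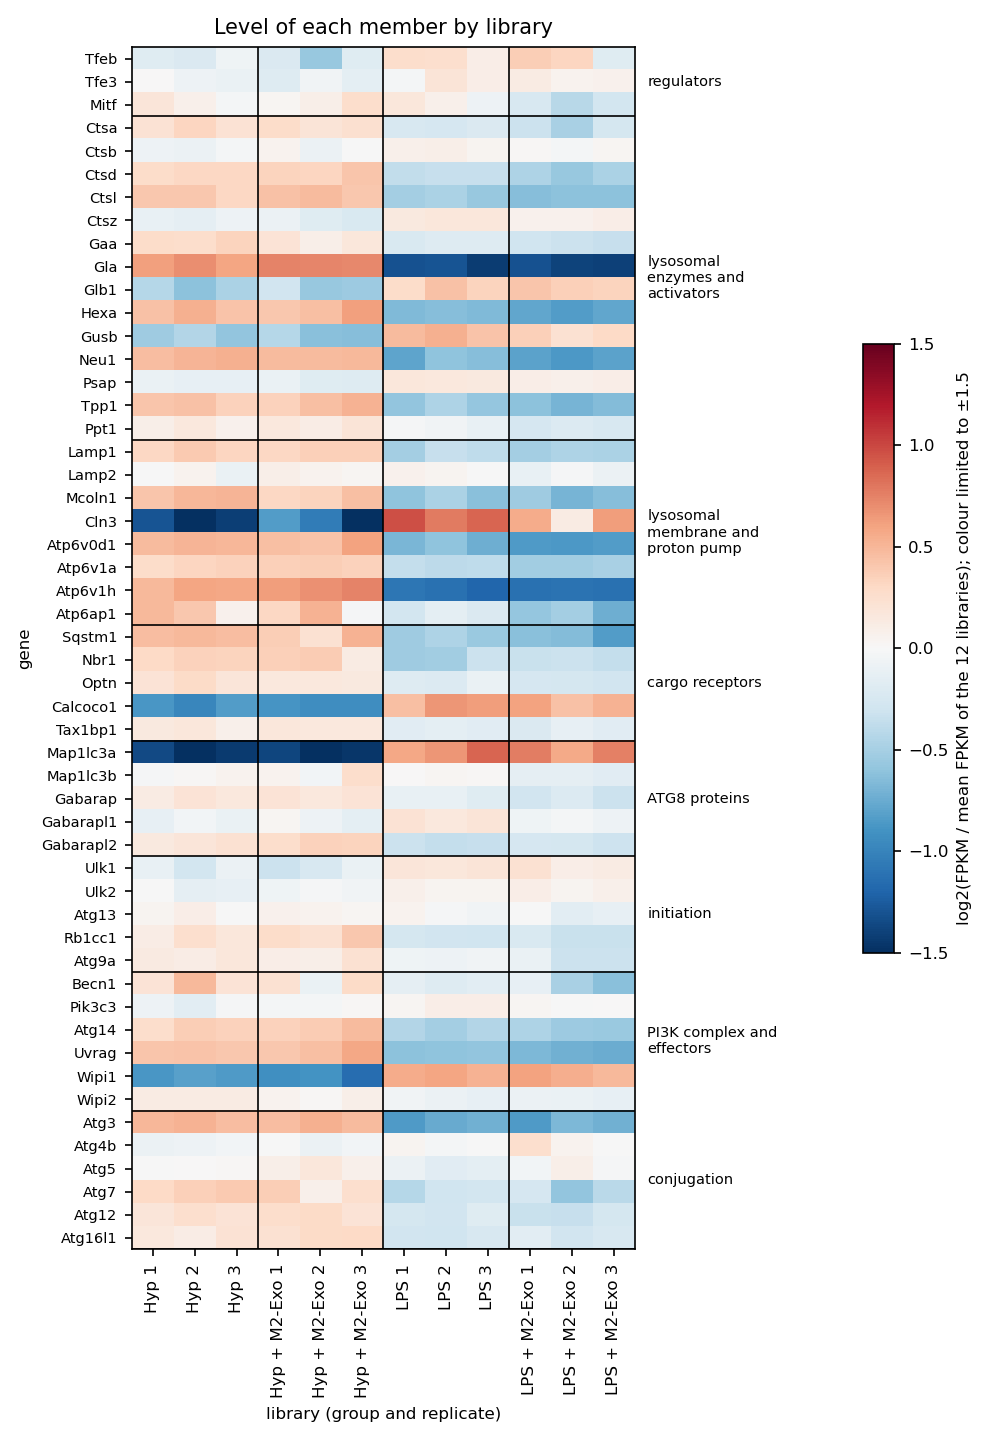
Level of each of the 52 members (rows, ordered by role) in each of the 12 libraries (columns), as log2 of FPKM over that gene's mean FPKM; red is above and blue below the mean. The columns divide by injury for most rows, with Gla, Atp6v1h and Atg3 low and Map1lc3a, Wipi1, Calcoco1 and Cln3 high in the LPS libraries, and neighbouring groups with and without M2-Exo look alike.

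The comparison of LPS with Hyp asked how the genes differ between the injury models. Most members differed, and the lysosomal members were mainly lower in LPS. Of the 52 members, 48 were called, 18 higher and 30 lower in LPS, where called means a Benjamini-Hochberg adjusted p under 0.05 in the quasi-likelihood test of edgeR. This has to be read against a background in which 75.8% of all genes tested were called and 38% were called lower, so a call alone says little, while the share of members called lower is above that of all genes. A change of at least 1 on the log2 scale was called for 11 members, beside 24% of all genes, and 2 passed the study's thresholds (unadjusted p under 0.05 and a change of at least 2), beside 7.68% of all genes. The median log2 fold change was -0.51 over the 22 lysosomal members and -0.20 over the 27 autophagy members, against -0.0091 over all genes. Of the lysosomal members 14 fell and 7 rose, and of the autophagy members 16 fell and 9 rose. The members not called were Ppt1, Atg13, Atg5 and Mitf.

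Among the 14 enzymes and activators 8 fell and 5 rose, beside 75.8% of all genes called and 38% called lower. The largest fall was in Gla (ENSMUSG00000031266, chromosome X, 134588149 to 134601125), which encodes alpha-galactosidase A, the enzyme deficient in Fabry disease. Its FPKM was 35.1, 37.2 and 34.7 in Hyp and 9.27, 9.34 and 8.52 in LPS. The groups were far apart, a log2 fold change of -1.89 (standard error 0.051, edgeR, adjusted p = 4.74e-08), or 3.71-fold lower in LPS. Hexa (ENSMUSG00000025232, chromosome 9, 59539667 to 59565105), the alpha subunit of beta-hexosaminidase, which degrades GM2 ganglioside, had 193, 206 and 192 FPKM in Hyp and 90.1, 91.2 and 89.8 in LPS. All LPS libraries lay below all Hyp libraries, at 2.05-fold lower (log2 fold change -1.03, standard error 0.036, edgeR, adjusted p = 1.24e-07). The sialidase Neu1 fell 2.12-fold and Tpp1, a tripeptidyl peptidase, 1.81-fold. The cathepsins did not move together. Ctsl, a cysteine protease, had 195, 195 and 184 FPKM in Hyp and 104, 106 and 99.4 in LPS and was 1.74-fold lower (log2 fold change -0.80, standard error 0.037, edgeR, adjusted p = 4.99e-07). The aspartic protease Ctsd fell as well, from 162, 166 and 165 FPKM in Hyp to 104, 105 and 105 FPKM in LPS. By contrast Ctsb, at 128, 127 and 132 FPKM in Hyp and 143, 144 and 139.8 in LPS, rose by 0.23 on the log2 scale, and Ctsz rose by 0.36. The largest rises among the enzymes were in Gusb, beta-glucuronidase (2.12-fold), and Glb1, beta-galactosidase (1.93-fold), and Psap rose 1.29-fold. Ctsb, Ctsz and Glb1 are among the genes that overlap another counted gene.

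All 8 membrane and proton pump genes were called, 6 lower and 2 higher, beside 75.8% of all genes called and 38% called lower. Their median log2 fold change was -0.64. Atp6v1h (ENSMUSG00000033793, chromosome 1, 5070018 to 5162529), a regulatory subunit of the cytosolic sector of the V-ATPase, had 19.7, 21.2 and 21.04 FPKM in Hyp and 6.62, 6.43 and 6.15 FPKM in LPS. It was 3.03-fold lower in LPS, with no overlap between the groups (log2 fold change -1.60, standard error 0.041, edgeR, adjusted p = 3.72e-08). Atp6v0d1 (ENSMUSG00000013160, chromosome 8, 105524465 to 105566047) had 231, 237 and 235 FPKM in Hyp and 103, 109.8 and 101 in LPS and was 2.11-fold lower (log2 fold change -1.08, standard error 0.036, edgeR, adjusted p = 1.03e-07). The catalytic subunit Atp6v1a fell 1.52-fold and the accessory subunit Atp6ap1 1.37-fold, so that the 4 pump members fell together. Mcoln1, the lysosomal calcium channel, had 39.4, 41.7 and 42.03 FPKM in Hyp and 19.5, 21.2 and 19.1 in LPS, 1.93-fold lower (edgeR, adjusted p = 5.93e-07). The lysosomal membrane glycoproteins parted. Lamp1 had 898, 954 and 904 FPKM in Hyp and 508, 569.9 and 556 FPKM in LPS and fell by 0.67 on the log2 scale (edgeR, adjusted p = 8.99e-06). Lamp2, at 47.8, 49.6 and 44.7 FPKM in Hyp and 50.2, 49.5 and 47.7 in LPS, overlapped between the groups, and its rise of 0.14 (edgeR, adjusted p = 0.0157) did not stay called in every alternative. Cln3, a lysosomal membrane protein affected in juvenile Batten disease, was higher in LPS (0.589, 0.518 and 0.552 FPKM) than in Hyp (0.123, 0.0873 and 0.113 FPKM), but it is the lowest member and overlaps Apobr.

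Since TFEB and its relatives bind E-boxes (CACGTG), the promoters of the members were read for this motif and for the longer TCACGTGA, both of which read the same on either strand, so that each longer match is also a match of the shorter. The RefSeq promoter table (GRCm38.p6, 250 bases before to 50 after each start) held 44 of the 52 members. The E-box letters were found in 15 of the 44 (34.1%), beside 8.09% of the 27025 genes in the table, and in 11 of the 20 lysosomal members in it against 4 of the 21 autophagy members. The longer motif was found in 8 of the 44 (18.2%), beside 1.12% of all genes in the table. Of these 8, 7 are lysosomal and 1, Atg3, is an autophagy gene. They are shown because 7 of the 8 fell in LPS against Hyp, all but Cln3, with a median log2 fold change of -0.78, beside 38% of all genes called lower. In the 36 promoters without the longer motif, 18 members fell and 14 rose. This split does not separate the motif from the class, since 7 of the 8 are lysosomal. Of all 22 lysosomal members 14 fell, with a median of -0.51. For the E-box in LPS against Hyp, the 15 members with it had a median of -0.61, with 12 called lower and 2 higher. The 29 without it had a median of 0.042, with 13 called lower and 13 higher. Of these 15, 11 are lysosomal. A part of either motif in the falls was not tested. In LPS + M2-Exo against LPS the medians of the same 8 and 36 members were -0.12 and -0.081, whereas for the E-box they ran the other way, at -0.069 for the 15 with it and -0.096 for the 29 without. A match is a description of the letters, not of binding. The starts are those of RefSeq, which can differ from the deposited gene bounds. For Cln3, Ctsa, Ctsd, Atp6v1a and Mcoln1 the stretches lie inside the gene as deposited. The deposited Cln3, on the minus strand, runs from 126571207 to 126585817. The matches, with the 11 bases on either side, 5′ to 3′ on the gene's strand and with the motif in capitals, were:
Gla (chrX:134601215-134601244, minus strand, 228 bases before the start): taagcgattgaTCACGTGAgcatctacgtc
Gla (chrX:134601182-134601211, minus strand, 195 bases before the start): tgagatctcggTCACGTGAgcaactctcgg
Atp6v0d1 (chr8:105566050-105566079, minus strand, 4 bases before the start): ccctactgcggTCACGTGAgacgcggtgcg
Atp6v1a (chr16:44139373-44139402, minus strand, 132 bases before the start): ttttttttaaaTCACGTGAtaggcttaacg
Mcoln1 (chr8:3500462-3500491, plus strand, 46 bases before the start): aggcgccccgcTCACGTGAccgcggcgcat
Ctsd (chr7:142387908-142387937, minus strand, 99 bases before the start): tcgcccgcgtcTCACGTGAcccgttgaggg
Ctsa (chr2:164833749-164833778, plus strand, 13 bases before the start): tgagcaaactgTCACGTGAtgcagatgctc
Ctsa (chr2:164833766-164833795, plus strand, from base 5 after the start): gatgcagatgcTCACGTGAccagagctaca
Cln3 (chr7:126583340-126583369, minus strand, 122 bases before the start): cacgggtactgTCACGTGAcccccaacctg
Atg3 (chr16:45158746-45158775, plus strand, 72 bases before the start): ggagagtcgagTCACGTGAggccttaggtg

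Of the regulators, Tfeb and Tfe3 were called higher in LPS and Mitf was not called. Tfeb (ENSMUSG00000023990, chromosome 17, 47737030 to 47792419), often called the master regulator of lysosome formation, had 1.61, 1.58 and 1.76 FPKM in Hyp and 2.204, 2.19 and 1.97 in LPS. Each LPS library exceeded each Hyp library, a 1.37-fold rise (log2 fold change 0.45, standard error 0.074, edgeR, adjusted p = 0.0006995). Tfe3 had 5.3, 5.01 and 4.92 FPKM in Hyp and 5.14, 6.03 and 5.66 in LPS, with 1 LPS library inside the Hyp range, and rose by 0.23 (edgeR, adjusted p = 0.00929), a call that did not stay in every alternative. Mitf had 1.34, 1.25 and 1.16 FPKM in Hyp and 1.32, 1.24 and 1.12 in LPS and overlapped, with a 95% interval of its log2 fold change from -0.14 to 0.28. Transcript levels of these factors do not show where their proteins are, and their activity depends on entry into the nucleus.

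The autophagy genes divided within almost every role. Of the 5 cargo receptors 4 fell and 1 rose, beside 75.8% of all genes called and 38% called lower. Sqstm1 (ENSMUSG00000015837, chromosome 11, 50199366 to 50210827) had 143, 146 and 142 FPKM in Hyp and 71.4, 74.8 and 70.4 FPKM in LPS. It was 1.87-fold lower (log2 fold change -0.90, standard error 0.032, edgeR, adjusted p = 1.36e-07), and Nbr1, a receptor of related structure, fell 1.62-fold. Optn and Tax1bp1, which act in the removal of damaged mitochondria and aggregates, fell by 0.31 and 0.20 on the log2 scale. Calcoco1, a receptor for autophagy of the endoplasmic reticulum, rose instead, from 7.11, 6.61 and 7.305 FPKM in Hyp to 17.8, 20.6 and 20.2 FPKM in LPS, a 2.97-fold rise (edgeR, adjusted p = 4.58e-07).

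The ATG8 proteins showed the same division, with 3 rising and 2 falling, beside 75.8% of all genes called. Map1lc3a (ENSMUSG00000027602, chromosome 2, 155276297 to 155278073), which encodes LC3A, had 2.68, 2.42 and 2.54 FPKM in Hyp and 10.3, 10.8 and 12.6 FPKM in LPS. With 4.68-fold it had the largest rise of the autophagy members (log2 fold change 2.23, standard error 0.101, edgeR, adjusted p = 4.33e-07). Gabarapl1 rose 1.29-fold, Gabarapl2 fell 1.36-fold and Gabarap fell 1.15-fold. Map1lc3b, the gene of the LC3B protein that is the usual blot marker of autophagy, was at 8.82, 9.06 and 9.26 FPKM in Hyp and 9.02, 9.15 and 9.09 in LPS. The ranges overlapped, and its fitted rise of 0.10 (edgeR, adjusted p = 0.0363) did not stay called in every alternative.

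Of the initiation genes, the kinase genes Ulk1 and Ulk2 rose and Rb1cc1 and Atg9a fell, though the call of Atg9a did not stay in every alternative. Ulk1 had 17.8, 15.95 and 18.1 FPKM in Hyp and 21.8, 21.7 and 22.02 FPKM in LPS, a 1.35-fold rise with no overlap (edgeR, adjusted p = 8.23e-05), while the scaffold Rb1cc1 (FIP200) fell 1.29-fold. In the PI3K complex the subunits moved apart. Uvrag had 54, 54.5 and 53.4 FPKM in Hyp and 26.4, 26.5 and 26.8 in LPS and was 1.91-fold lower (log2 fold change -0.93, standard error 0.0304, edgeR, adjusted p = 9.73e-08). Atg14, which directs the complex to autophagy, fell 1.63-fold and Becn1 (Beclin 1), at 10.9, 13.3 and 10.9 FPKM in Hyp and 8.63, 8.28 and 8.51 in LPS, fell 1.299-fold, whereas the catalytic subunit Pik3c3 rose 1.19-fold. Wipi1 (ENSMUSG00000041895, chromosome 11, 109573331 to 109611967), a reader of the lipid that this complex makes, had 6.39, 6.69 and 6.51 FPKM in Hyp and 17.3, 17.7 and 16.8 in LPS. It rose 2.82-fold (log2 fold change 1.49, standard error 0.045, edgeR, adjusted p = 6.79e-08), while its relative Wipi2 fell by 0.12 on the log2 scale. In the conjugation system 4 of 6 fell and 1, Atg4b, rose, beside 75.8% of all genes called and 38% called lower. The call of Atg4b was also lost in an alternative. Atg3, which transfers ATG8 to lipid, had 38.3, 38.9 and 37.5 FPKM in Hyp and 15.04, 15.98 and 16.5 FPKM in LPS, 2.27-fold lower (edgeR, adjusted p = 2.54e-07). The activating enzyme Atg7 had 4.58, 4.76 and 4.89 FPKM in Hyp and 2.78, 3.02 and 3.07 in LPS and was 1.51-fold lower. Atg5 had 16.2, 16.3 and 16.5 FPKM in Hyp and 15.4, 14.5 and 14.6 in LPS, and the 95% interval of its log2 fold change ran from -0.16 to 0.065.

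**Figure D2:**
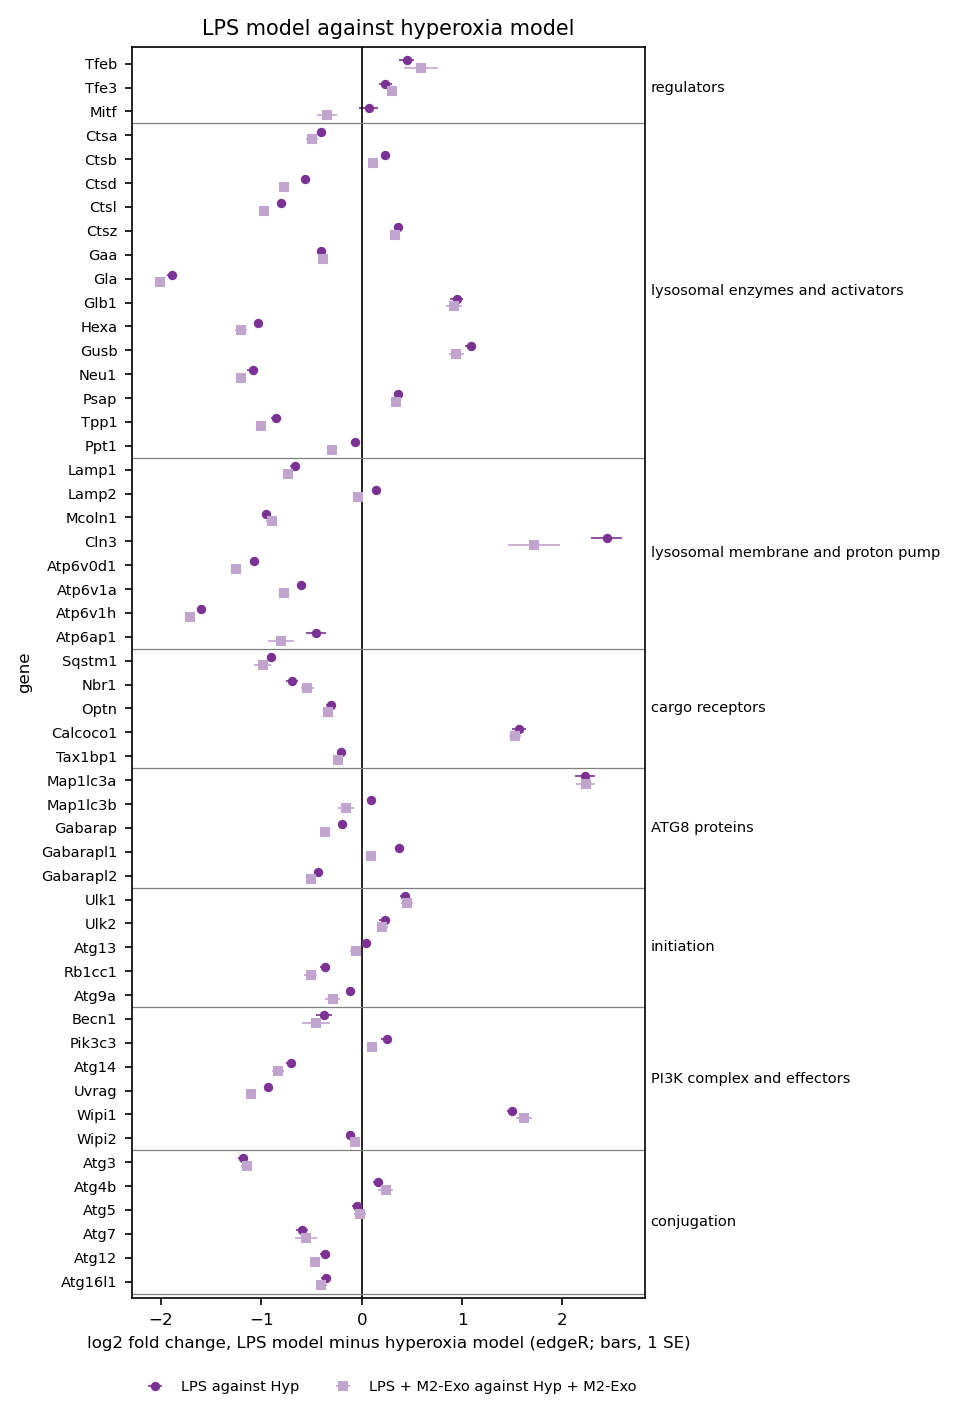
Log2 fold change of the LPS model over the hyperoxia model for each member (rows, by role), without M2-Exo (dark circles) and with M2-Exo (light squares), with bars of 1 standard error from edgeR. Most lysosomal genes lie left of 0, with Gla and Atp6v1h farthest, and Cln3, Map1lc3a, Calcoco1, Wipi1, Gusb and Glb1 lie to the right in both comparisons.

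The injuries were compared a second time with M2-Exo in both arms, and the lysosomal members were again mainly lower in LPS. In LPS + M2-Exo against Hyp + M2-Exo, 44 of the 52 members were called in edgeR, 13 higher and 31 lower, beside 73.7% of all genes called and 37.1% called lower. A change of at least 1 was called for 12 members, beside 24% of all genes, and 2 passed the study's thresholds, beside 7.2% of all genes. The medians were -0.75 for the lysosomal and -0.29 for the autophagy members. Gla had 38.6, 38.2 and 37.7 FPKM in Hyp + M2-Exo and 9.28, 8.78 and 8.66 in LPS + M2-Exo, 4.02-fold lower (log2 fold change -2.01, standard error 0.0503, edgeR, adjusted p = 5.26e-08). Atp6v1h had 21.7, 22.5 and 23.5 FPKM in Hyp + M2-Exo and 6.47, 6.49 and 6.44 in LPS + M2-Exo, 3.28-fold lower. The groups were again far apart for the enzymes Hexa (189, 194 and 218 FPKM in Hyp + M2-Exo and 82.9, 79.3 and 83.01 in LPS + M2-Exo) and Ctsl (201, 206 and 195 against 94.7, 96.7 and 96.7 FPKM) and for the pump subunit Atp6v0d1 (228, 225 and 253 against 92.6, 91.6 and 93.6 FPKM), which were 2.3-fold, 1.96-fold and 2.39-fold lower. Of the autophagy genes, Uvrag (53.7, 55.4 and 60.2 FPKM in Hyp + M2-Exo and 25.4, 24.6 and 24.1 in LPS + M2-Exo) and Atg3 (37.4, 39.3 and 37.6 against 15.01, 17.01 and 16.5 FPKM) were 2.15-fold and 2.22-fold lower. Neu1, at 22.4, 22.4 and 22.6 FPKM in Hyp + M2-Exo and 9.27, 8.899 and 9.25 in LPS + M2-Exo, and Atp6v1a, at 58.1, 58.4 and 57.4 against 31.5, 31.5 and 32.3 FPKM, were 2.31-fold and 1.72-fold lower. On the high side stood Map1lc3a (2.65, 2.42 and 2.5 FPKM in Hyp + M2-Exo and 11.7, 10.2 and 11.6 in LPS + M2-Exo), Wipi1 (6.22, 6.32 and 5.31 against 17.8, 17.1 and 16.5 FPKM) and Calcoco1 (7.06, 6.83 and 6.84 against 19.8, 17.7 and 18.7 FPKM). Mitf, not called without M2-Exo, was called lower here (1.204, 1.26 and 1.41 FPKM in Hyp + M2-Exo and 0.995, 0.886 and 0.975 in LPS + M2-Exo, edgeR, adjusted p = 0.01405), though not in every alternative. These calls share no library with those of LPS against Hyp, but the cells, the design and any difference between runs are shared.

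**Figure D3:**
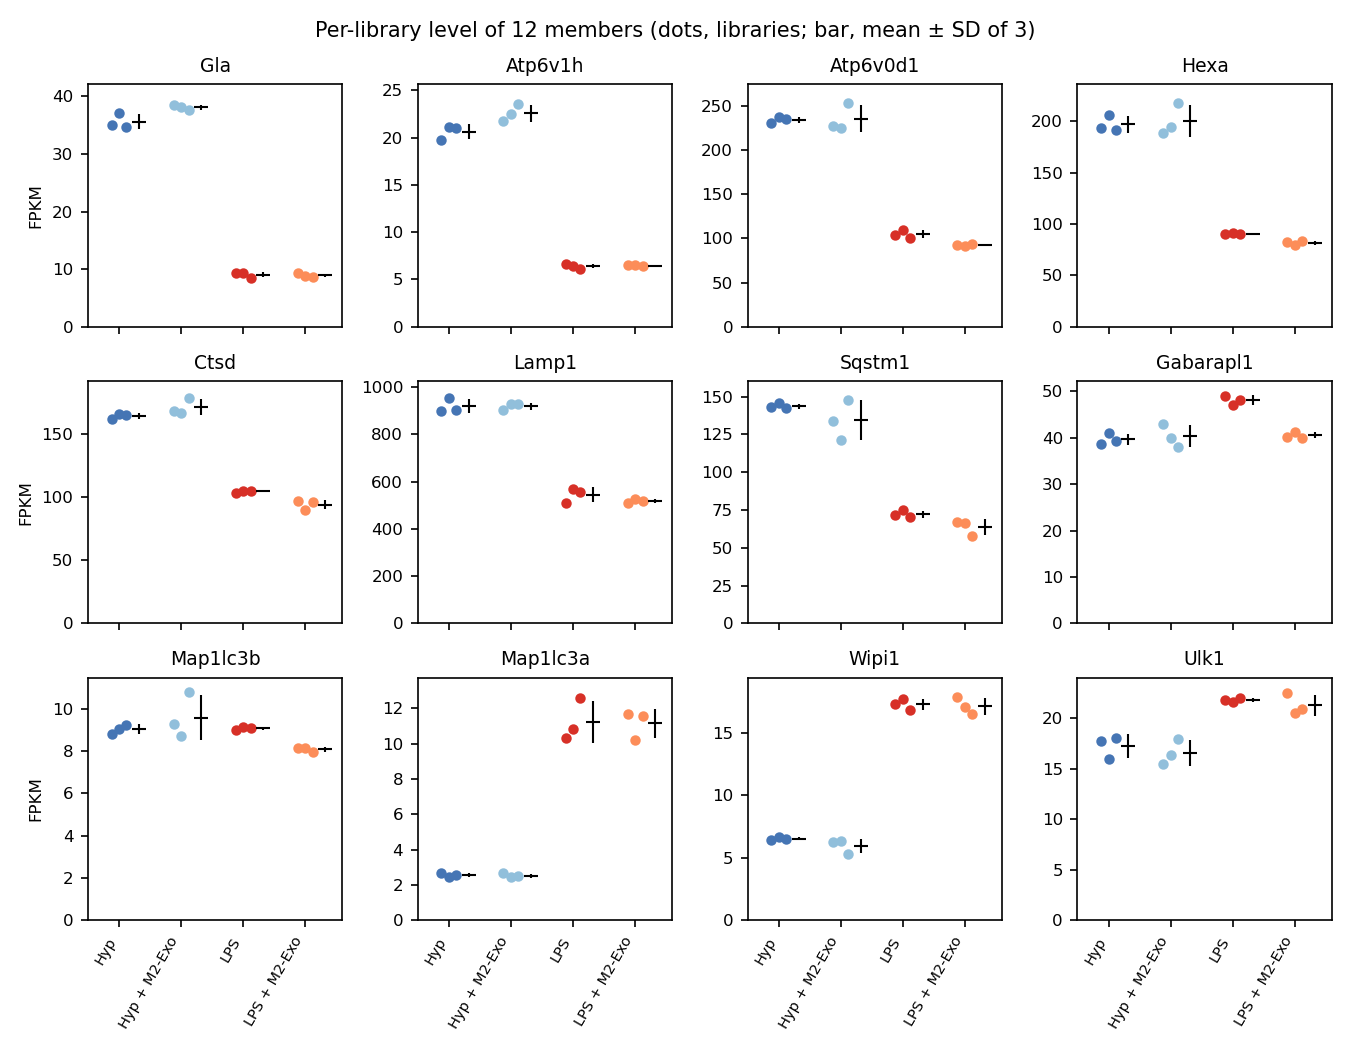
FPKM of 12 members in each library (dots) with the mean ± SD of the 3 libraries (black). Gla, Atp6v1h, Atp6v0d1, Hexa, Ctsd, Lamp1 and Sqstm1 are lower and Map1lc3a, Wipi1 and Ulk1 higher in the LPS groups, and the LPS + M2-Exo dots of Gabarapl1 (40.1 to 41.2 FPKM) and Map1lc3b (7.96 to 8.16 FPKM) lie below those of LPS.

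Summed by class, the lysosomal members made up 2669 to 2752 FPKM in Hyp, 2692 to 2745 in Hyp + M2-Exo, 1826 to 1915 in LPS and 1741 to 1760 in LPS + M2-Exo. The sum in both LPS groups lay below that in both hyperoxia groups, and without Lamp1 it was 1764 to 1798, 1764 to 1818, 1307 to 1345 and 1215 to 1240 FPKM, in the same order of groups. The autophagy members summed to 659 to 677 FPKM in Hyp, 651 to 683 in Hyp + M2-Exo, 509.7 to 514.5 in LPS and 471.5 to 494 in LPS + M2-Exo. The ratio of lysosomal to autophagy sums was 4.02 to 4.13 in the 6 hyperoxia libraries and 3.54 to 3.73 in the 6 LPS libraries. Without Lamp1 the ratios were 2.66 to 2.71 and 2.49 to 2.63. The lysosomal sum was thus lower in the LPS libraries by more than the autophagy sum was, and Lamp1 accounted for much of the gap. The membrane and pump genes were at 1322 to 1390 FPKM in Hyp and 741 to 812 FPKM in LPS, against 1340 to 1362 and 1080 to 1103 FPKM for the enzymes. Without Lamp1 the membrane and pump genes were at 424 to 436 FPKM in Hyp and 228 to 242 FPKM in LPS, a smaller gap in FPKM than that of the enzymes but a larger one relative to their level. The median log2 fold changes were -0.64 for all 8 membrane and pump genes, Lamp1 included, and -0.40 for the enzymes. Sums weigh abundant genes most, and the macrophage marker sum ran the opposite way between the injuries. The macrophage markers did not all do so. Of 15 tested in LPS against Hyp, 10 were called higher and 4 lower, beside 75.8% of all genes called. Their log2 fold changes ran from -3.92 to 7.58.

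**Figure D4:**
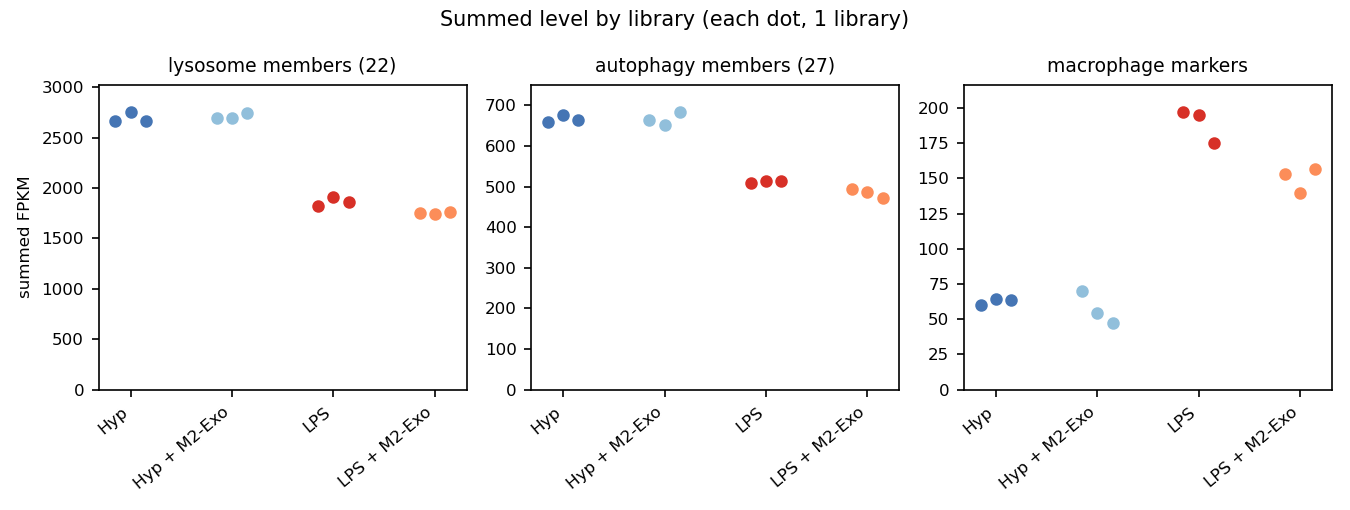
Summed FPKM per library (each dot 1 library) of the 22 lysosomal members, the 27 autophagy members and the macrophage marker genes, by group. The lysosomal and autophagy sums are lower in both LPS groups than in both hyperoxia groups, and within LPS the 3 libraries with M2-Exo lie below the 3 without it for all 3 sums.

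The comparison of LPS + M2-Exo with LPS asked what M2-Exo changed in the LPS model. The differences were small and mostly downward, and no member was called. The count of members with an adjusted p under 0.05 in edgeR was 0 of 52 (0.187% of all genes), and DESeq2 called 2, Gabarapl1 and Atp6ap1, beside 0.974% of all genes. At an unadjusted p under 0.05 there were 22 members (42.3%), beside 11.1% of all genes, and 21 of them were lower, beside 6.1% of all genes. In 26 members all 3 libraries with M2-Exo lay below all 3 without it, beside 9.81% of all genes. The lysosomal members had 20 of 22 fitted values below 0, 14 with an unadjusted p under 0.05, and a median log2 fold change of -0.11. The autophagy members had 19 of 27 below 0, 6 with an unadjusted p under 0.05 and lower, and a median of -0.052, against 0.0027 for all genes. Fitted values below 0 made up 48.9% of all genes. The autophagy median rested partly on single libraries, at -0.015 when LPS + M2-Exo replicate 2 was left out and -0.027 when LPS replicate 3 was, while the lysosomal median lay between -0.12 and -0.10 with any 1 library left out. Without LPS replicate 2, 14 members had an unadjusted p under 0.05, beside 7.65% of all genes in that fit. In the same libraries 7 of the 13 macrophage markers tested were lower at an unadjusted p under 0.05, with a median log2 fold change of -0.31 and none called by edgeR, and their part in the lower lysosomal values was not tested.

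The smallest p belonged to Gabarapl1 (ENSMUSG00000030161, chromosome 6, 129533160 to 129542346), an ATG8 protein of the GABARAP branch. It had 49.1, 47 and 48.3 FPKM in LPS and 40.3, 41.2 and 40.1 FPKM in LPS + M2-Exo. The groups did not overlap, and the level was 15.4% lower (log2 fold change -0.24, standard error 0.035, edgeR, adjusted p = 0.0642). Over the alternatives its adjusted p ran from 0.0056 with DESeq2 to 0.306 with the replicate number as a block. Gabarap and Map1lc3b were lower too, at 9.02, 9.15 and 9.09 FPKM in LPS and 8.16, 8.14 and 7.96 in LPS + M2-Exo for Map1lc3b (log2 fold change -0.16, edgeR, adjusted p = 0.205), whereas Gabarapl2 and Map1lc3a had fitted values of 0.069 and -0.003. The ATG8 family thus did not move as a whole.

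In the proton pump, Atp6ap1 (ENSMUSG00000019087, chromosome X, 74297097 to 74304721) had 18.1, 19.8 and 18.97 FPKM in LPS and 14.7, 15.4 and 13.2 FPKM in LPS + M2-Exo. It was 23.5% lower with no overlap (log2 fold change -0.39, standard error 0.063, edgeR, adjusted p = 0.104), with an adjusted p from 4.23e-05 with DESeq2 to 0.303 in the fit of all 12 libraries over the alternatives. In that fit the spread of the hyperoxia libraries enters, where Atp6ap1 was at 30.7, 29.2 and 23.01 FPKM in Hyp. Atp6v0d1 and Atp6v1a were 11.1% and 8.49% lower, both with no overlap, and Atp6v1h was not, with a 95% interval of -0.077 to 0.12 on the log2 scale. Lamp2 had 50.2, 49.5 and 47.7 FPKM in LPS and 44.6, 47.4 and 45.02 FPKM in LPS + M2-Exo, and Lamp1, at 508, 569.9 and 556 against 509, 526 and 520 FPKM, overlapped.

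Of the enzymes, 12 of 14 had all libraries with M2-Exo below all without it, each by a small amount, beside the 9.81% of all genes with all 3 libraries lower. Ppt1, a palmitoyl thioesterase, had the smallest p of them, with 20.1, 19.6 and 18.8 FPKM in LPS and 16.98, 17.6 and 17.2 FPKM in LPS + M2-Exo (log2 fold change -0.17, standard error 0.039, edgeR, adjusted p = 0.207). Ppt1 overlaps Cap1. Ctsd had 104, 105 and 105 FPKM in LPS and 96.8, 89.9 and 95.98 FPKM in LPS + M2-Exo, 9.597% lower (log2 fold change -0.15, standard error 0.035, edgeR, adjusted p = 0.221). Ctsb had 143, 144 and 139.8 FPKM in LPS and 138, 133 and 138 in LPS + M2-Exo, without overlap and 3.91% lower. Gla, the member that differed most between injuries among the enzymes, overlapped here (9.27, 9.34 and 8.52 against 9.28, 8.78 and 8.66 FPKM), and so did Glb1.

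Among the regulators, Mitf (ENSMUSG00000035158, chromosome 6, 97807052 to 98021349) had 1.32, 1.24 and 1.12 FPKM in LPS and 0.995, 0.886 and 0.975 FPKM in LPS + M2-Exo. It was 22.1% lower with no overlap, at a low level (log2 fold change -0.36, standard error 0.097, edgeR, adjusted p = 0.254). Tfeb, at 2.204, 2.19 and 1.97 FPKM in LPS and 2.36, 2.29 and 1.61 in LPS + M2-Exo, and Tfe3, at 5.14, 6.03 and 5.66 against 5.72, 5.46 and 5.51 FPKM, overlapped. Of the cargo receptors, Sqstm1 had 71.4, 74.8 and 70.4 FPKM in LPS and 67.2, 66.1 and 57.8 in LPS + M2-Exo (log2 fold change -0.18, edgeR, adjusted p = 0.338). In the initiation and PI3K roles Atg9a (6.26, 6.21 and 6.34 FPKM in LPS and 6.14, 5.25 and 5.26 in LPS + M2-Exo) and Uvrag (26.4, 26.5 and 26.8 against 25.4, 24.6 and 24.1 FPKM) had the smallest p, and both were lower with no overlap. Ulk1, at 21.8, 21.7 and 22.02 FPKM in LPS and 22.5, 20.6 and 20.9 in LPS + M2-Exo, and Becn1, at 8.63, 8.28 and 8.51 against 8.703, 6.78 and 6.16 FPKM, overlapped. In the conjugation system 4 of 6 fitted values were above 0, with a median of 0.047, and none was called. Atg5, which forms the conjugate that lipidates ATG8 proteins, had 15.4, 14.5 and 14.6 FPKM in LPS and 15.8, 17.2 and 16.01 FPKM in LPS + M2-Exo and was the one member higher at an unadjusted p under 0.05 (log2 fold change 0.15, standard error 0.059, edgeR, adjusted p = 0.417). Atg7 overlapped, at 2.78, 3.02 and 3.07 FPKM in LPS and 3.14, 2.47 and 2.81 FPKM in LPS + M2-Exo.

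**Figure D5:**
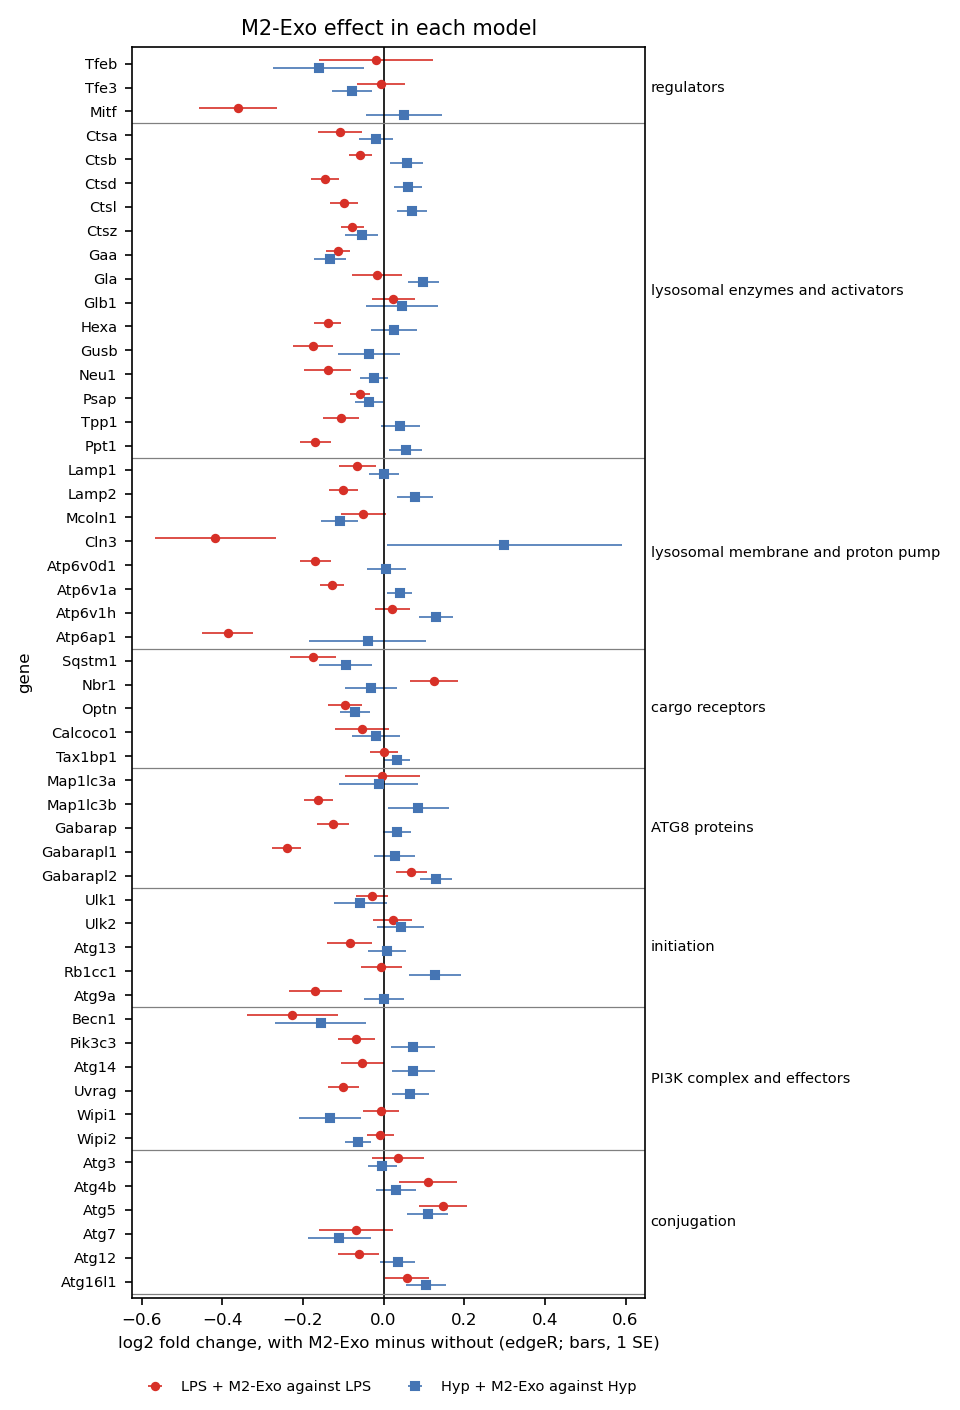
Log2 fold change with M2-Exo over without for each member (rows, by role) in the LPS model (red circles) and in the hyperoxia model (blue squares), with bars of 1 standard error from edgeR. In LPS 42 of 52 points lie below 0, beside 48.9% of all genes, and in hyperoxia 21 do, beside 50.7% of all genes. No point is called in either.

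In hyperoxia the members showed no common direction with M2-Exo. In Hyp + M2-Exo against Hyp, 0 of 52 members were called by edgeR (0.101% of all genes) and 0 by DESeq2 (0.268% of all genes). An unadjusted p under 0.05 was found for 5 members, beside 8.48% of all genes, and 11 members had all 3 libraries on one side, 7 higher and 4 lower, beside 15.6% of all genes, so both counts are near the background. The medians were 0.033 for the lysosomal and 0.027 for the autophagy members, against -0.0021 for all genes. They rested partly on single libraries: the lysosomal median was 0.011 when Hyp replicate 3 was left out and 0.015 when Hyp + M2-Exo replicate 3 was, and the autophagy median was 0.010 to 0.017 when replicate 1 or 3 of either group was. The largest difference among these 5 was in Gaa, acid alpha-glucosidase, which degrades glycogen, with 81.2, 80.7 and 84.6 FPKM in Hyp and 77.6, 71.6 and 75.4 FPKM in Hyp + M2-Exo (log2 fold change -0.13, standard error 0.039, edgeR, adjusted p = 0.544). Gaa was also lower in LPS + M2-Exo than in LPS (57.3, 59.04 and 58.7 against 54.7, 53.7 and 52.8 FPKM). Atp6v1h had 19.7, 21.2 and 21.04 FPKM in Hyp and 21.7, 22.5 and 23.5 in Hyp + M2-Exo and was 9.48% higher (edgeR, adjusted p = 0.544). Gabarapl2 had 38.9, 39.8 and 40.99 FPKM in Hyp and 41.96, 44.7 and 44.2 in Hyp + M2-Exo and was 9.38% higher (edgeR, adjusted p = 0.544). The log2 fold change was 0.10 for Gla and -0.11 for Mcoln1.

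The remaining roles in hyperoxia gave similarly small values. Among the regulators, Tfe3 had 5.3, 5.01 and 4.92 FPKM in Hyp and 4.62, 5.06 and 4.74 FPKM in Hyp + M2-Exo, Tfeb 1.61, 1.58 and 1.76 against 1.57, 1.23 and 1.62, and Mitf 1.34, 1.25 and 1.16 against 1.204, 1.26 and 1.41, and the groups overlapped for each. The cargo receptor with the smallest p was Optn, at 28.5, 30.1 and 28.1 FPKM in Hyp and 27.5, 27.6 and 27.2 in Hyp + M2-Exo, lower in all 3 libraries. Sqstm1 varied more with M2-Exo, at 134, 122 and 148 FPKM, and overlapped with Hyp. Rb1cc1 (2.53, 2.79 and 2.64 FPKM in Hyp and 2.83, 2.74 and 3.11 in Hyp + M2-Exo), Wipi2 (13.8, 13.8 and 13.8 against 13.1, 12.9 and 13.5 FPKM) and Atg5 (16.2, 16.3 and 16.5 against 17.3, 18.2 and 17.2 FPKM) led the initiation, PI3K and conjugation roles, and only Rb1cc1 of these overlapped. Lamp1, at 898, 954 and 904 FPKM in Hyp and 903, 928 and 926 FPKM in Hyp + M2-Exo, had a 95% interval of -0.084 to 0.088 on the log2 scale. The groups of Lamp2, the other membrane glycoprotein, overlapped at 47.8, 49.6 and 44.7 FPKM in Hyp and 50.9, 49.99 and 49.02 in Hyp + M2-Exo (95% interval -0.023 to 0.18). The cathepsins were Ctsb, at 128, 127 and 132 FPKM in Hyp and 140.4, 128 and 135 in Hyp + M2-Exo (95% interval -0.038 to 0.15), and Ctsd, at 162, 166 and 165 against 168, 167 and 178 FPKM (95% interval -0.022 to 0.14). Both intervals included 0. The groups of Ctsb overlapped, and those of Ctsd were separated only by 166.1 against 167.1 FPKM. Of the autophagy genes fixed by name, Ulk1 was at 17.8, 15.95 and 18.1 FPKM in Hyp and 15.5, 16.4 and 17.95 in Hyp + M2-Exo (95% interval -0.21 to 0.10) and Becn1 at 10.9, 13.3 and 10.9 against 11.1, 8.85 and 11.6 FPKM (95% interval -0.42 to 0.11). Atg7 was at 4.58, 4.76 and 4.89 against 4.81, 3.93 and 4.43 FPKM (95% interval -0.29 to 0.071) and Map1lc3b at 8.82, 9.06 and 9.26 against 9.27, 8.72 and 10.8 FPKM (95% interval -0.088 to 0.26), and the groups of these 4 genes overlapped. Without Hyp + M2-Exo replicate 3 the fitted value of Map1lc3b was -0.0072 in place of 0.086.

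Whether M2-Exo acted differently in the 2 models was tested as an interaction across the 12 libraries, the effect in LPS minus that in hyperoxia. No member was called by edgeR, 0 of 52 (0.0352% of all genes), and DESeq2 called 3, Ctsd, Atp6v1a and Gabarapl1, with the lowest adjusted p at 0.0383, beside 0.493% of all genes. At an unadjusted p under 0.05 there were 16 members, beside 9.78% of all genes, and all 16 had a lower effect in LPS, beside 4.84% of all genes, with 10 of them lysosomal and 5 of the autophagy machinery. The lysosomal median of the difference was -0.13 and the autophagy median -0.052. Atp6v1a had the smallest p (difference -0.17, standard error 0.038, edgeR, adjusted p = 0.2204). It was at 54.9, 56.7 and 57.7 FPKM in Hyp, 58.1, 58.4 and 57.4 in Hyp + M2-Exo, 35.3, 34.6 and 34.6 in LPS and 31.5, 31.5 and 32.3 in LPS + M2-Exo. Its LPS libraries with M2-Exo were thus below those without, while the hyperoxia libraries overlapped. The next smallest p-values belonged to Ctsd, Gabarapl1 and Ppt1, with differences of -0.21, -0.27 and -0.23. By edgeR's adjusted p no member was shown to differ in its M2-Exo effect between the models, whereas by that of DESeq2 the 3 named above were.

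Further genes of the same pathways, listed by function and not by how they moved, were counted alongside. In LPS against Hyp, 11 of the 15 other V-ATPase subunits tested fell and 1 rose (median log2 fold change -0.62), as the 4 pump members did. The other lysosomal hydrolases were divided, with 15 higher and 8 lower of 34 (median -0.040), a median near that of all genes. Of the other autophagy machinery 7 rose and 18 fell of 31, and of the genes of lysosomal nutrient sensing 3 rose and 13 fell of 19. The other lysosomal membrane and transport proteins were mixed, with 9 higher and 14 lower of 26. The other cargo receptors went against the member receptors, with 9 higher and 2 lower of 13 (median 0.47). All of these stand beside the 75.8% of all genes called in this comparison. In LPS + M2-Exo against Hyp + M2-Exo the other hydrolases were again divided, with 15 higher and 9 lower of 33 (median 0.14). The other V-ATPase subunits had 1 higher and 12 lower of 14, and the other membrane and transport proteins 9 higher and 14 lower of 26. The other autophagy machinery had 7 higher and 15 lower of 31, and the other cargo receptors 10 higher and 2 lower of 13. These stand beside 73.7% of all genes called. In LPS + M2-Exo against LPS, an unadjusted p under 0.05 was found for 7 of 33 other hydrolases, 4 of 26 other membrane and transport proteins and 3 of 14 other V-ATPase subunits, each of them lower, and for 1 of 31 genes of the other autophagy machinery, which was higher. The other cargo receptors had 1 of 13, lower, and the nutrient sensing genes 3 of 19, 2 higher and 1 lower, beside 11.1% of all genes (6.1% lower). By adjusted p 2 genes of these lists were called. Ncoa4, a receptor for ferritin, had 5.33, 5.61 and 5.76 FPKM in LPS and 1.3, 1.39 and 1.33 FPKM in LPS + M2-Exo (edgeR, adjusted p = 1.57e-05), but it ranged from 1.22 to 7.34 FPKM within the hyperoxia groups. Rragd, a GTPase that signals amino acid supply from the lysosome to mTORC1, had 4.81, 5.59 and 4.11 FPKM in LPS and 12.1, 13.3 and 13.4 FPKM in LPS + M2-Exo (log2 fold change 1.43, edgeR, adjusted p = 0.00249), and ranged from 7.86 to 22.6 FPKM within Hyp + M2-Exo. In hyperoxia 0 genes of these lists were called by edgeR, with an unadjusted p under 0.05 for 4 of 34 other hydrolases (1 higher, 3 lower), 2 of 27 other membrane proteins (both lower), 5 of 15 other V-ATPase subunits (3 higher, 2 lower), 1 of 31 genes of the other autophagy machinery (lower), 2 of 13 other cargo receptors (both lower) and 4 of 19 nutrient sensing genes (3 higher, 1 lower), beside 8.48% of all genes.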

How the data were processed

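RNA of 12 MLE-12 libraries was sequenced on an Illumina NovaSeq after poly(A) selection. The authors filtered reads with Seqtk and mapped them with HISAT2 2.0.4, and the submitters' processing notes also name StringTie 1.3.0, edgeR and the build GRCm38. The counting program and annotation are not given in the sources used here. The authors deposited raw counts of reads per gene and FPKM, which followed from the counts by gene length and library total to a relative 7.78e-06. All 24 numeric columns were used (0 left out).

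The count table was tested with edgeR 4.0.16 under R 4.3.3 (filterByExpr, TMM, quasi-likelihood F test, Benjamini-Hochberg over all genes tested, called under 0.05), with the 6 libraries of each comparison, or all 12 for the interaction. The numbers of genes tested were 13815 (Hyp + M2-Exo against Hyp), 13353 (LPS + M2-Exo against LPS), 13805 (LPS against Hyp), 13660 (LPS + M2-Exo against Hyp + M2-Exo) and 14187 (interaction). The fit was tested on simulated data. Alternatives were RLE or library size alone, no filter, DESeq2 1.42.0, all 12 libraries, the replicate number as a block, each library left out, and the study's thresholds (unadjusted p under 0.05, log2 fold change of at least 2). Counts at an unadjusted p and medians without overlapping members were added after seeing the data. Intervals are 95%.

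The members and lists were chosen with earlier results of these data known. Values in every library are given for the called members (the 12 with the smallest p per comparison, at most 4 per role), the member with the smallest p of each role in each M2-Exo comparison, and 13 members fixed by name; other members shown were chosen after their values were seen. Promoter letters are from RefSeq, and 50-base stretches were compared over GENCODE M21 transcripts. The macrophage sum leaves out Itgam, whose symbol stands on more than 1 row, and Rubcn and Retreg1 of the other autophagy lists were not found by symbol.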

Additional observations from a re-analysis of the deposited data

Results flagged for a closer look

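For 2 lysosomal proteases all 3 libraries with M2-Exo were higher than those without in hyperoxia and all 3 lower in LPS. In hyperoxia 15.6% of all genes had all 3 libraries on one side, and neither gene passed 0.05 there, unadjusted or adjusted (edgeR, adjusted p = 0.636 for Ctsd and adjusted p = 0.611 for Ctsl). For Ctsd the values were 162, 166 and 165 FPKM in Hyp, 168, 167 and 178 in Hyp + M2-Exo, 104, 105 and 105 in LPS and 96.8, 89.9 and 95.98 in LPS + M2-Exo. The difference of the M2-Exo effect, LPS minus hyperoxia, was -0.21 on the log2 scale (standard error 0.048, edgeR interaction test, adjusted p = 0.243), so it failed the adjustment, and DESeq2 called it. For Ctsl the values were 195, 194.7 and 183.5 FPKM in Hyp, 200.7, 205.6 and 195.3 in Hyp + M2-Exo, 104, 106 and 99.4 in LPS and 94.7, 96.7 and 96.7 in LPS + M2-Exo. The hyperoxia groups of Ctsl were thus separated only by 195 against 195.3 FPKM, and those of Ctsd only by 166.1 against 167.1 FPKM. The difference of the M2-Exo effect was -0.17 (standard error 0.0501, edgeR interaction test, adjusted p = 0.313). Both genes share stretches with other transcripts, 36.6% of the 50-base stretches of Ctsd and 28.1% of those of Ctsl. The cause was not tested.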

How the results depend on the processing

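Of the 48 calls in LPS against Hyp, 43 stayed in all 12 alternatives of fit, tool, scaling and left-out library, and of the 44 with M2-Exo, 40 did, with 0 changes of sign. Those that did not were Tfe3, Lamp2, Map1lc3b, Atg9a and Atg4b without M2-Exo and Mitf, Ulk2, Becn1 and Atg4b with it. Under the study's thresholds 2 members passed in each of these comparisons, beside 7.68% and 7.2% of all genes. DESeq2 called 2 members in LPS + M2-Exo against LPS and 3 in the interaction, where edgeR called 0. It also called more of all genes, 130 against 25 and 70 against 5, and the cause was not tested. Members with an unadjusted p under 0.05 numbered 14 to 20 with 1 library left out, and in hyperoxia 3 to 6, and 3 with DESeq2. With 1 library left out the lysosomal and autophagy medians ran from 0.011 to 0.037 and from 0.010 to 0.026 in hyperoxia, from -0.12 to -0.10 and from -0.069 to -0.015 in LPS, from -0.57 to -0.48 and from -0.21 to -0.18 in LPS against Hyp, and from -0.76 to -0.71 and from -0.34 to -0.25 with M2-Exo. With library size alone they were -0.60 and -0.29 in LPS against Hyp and -0.84 and -0.38 with M2-Exo, where the median of all genes moved as well. Without the members that overlap another counted gene, the lysosomal medians were -0.73 and -0.85.

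The replicate numbers did not pair the libraries, with correlations of deviations between -0.021 and 0.041. With the replicate number as a block, 0, 0, 47, 45 and 0 members were called, in the order Hyp + M2-Exo, LPS + M2-Exo, LPS against Hyp, the same with M2-Exo and the interaction. Of all genes, 8 of 13815, 6 of 13353, 10259 of 13805, 9864 of 13660 and 1 of 14187 were called, in the same order. The unadjusted member counts with the block were 5 in hyperoxia and 17 in LPS. The shares of all genes in the main fits were 8.48% and 11.1%, and those with the block are not given here. With the block the lowest adjusted p in LPS + M2-Exo was 0.225 in edgeR. With FPKM from TMM-scaled totals, the mean lysosomal sums were 2608, 2634, 1923 and 1809 in Hyp, Hyp + M2-Exo, LPS and LPS + M2-Exo, in place of 2696, 2711, 1868 and 1750. Depth limits mainly Cln3, with 19 to 126 counts.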
